A study of Ginkgo biloba with 6 samples.

Results

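Among 43190 loci counted in leaves of Ginkgo biloba seedlings, 193 were both well expressed and steady in the 6 RNA sequencing libraries of the study. They were chosen from the measured levels themselves. A locus belonged to the set if its mean over the 6 libraries was at least 100 CPM (the reads of a locus scaled to a common library total, with TMM factors that correct the totals for differences in composition) and its highest CPM was at most 1.2 times its lowest. Of 23641 loci with enough reads to be tested, 1714 reached 100 CPM, and the steady loci were 11.3% of these. Because all 6 libraries entered the choice, the closeness of the steady loci across libraries and across groups is a description and carries no test.

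The 2 groups had 3 libraries each. The UV-B group consisted of seedlings given ultraviolet-B light at 21.42 kJ/m2 per day for 14 days, and the control group of seedlings kept for 14 days in white light lacking UV-B. All seedlings shared a 16 h day at 25 °C, an 8 h night at 18 °C and fluorescent light of about 350 μmol/m2/s (photosynthetically active radiation), and no genotype, seedling age or pooling is given in the labels. Total counts ranged from 39066398 to 47559213 in UV-B libraries and from 37528794 to 46312109 in control libraries. Whether each replicate was a plant of its own is not given in the labels. A p-value below therefore measures spread among libraries, part of which may be technical.

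Ultraviolet-B is the shortest-wave part of sunlight that reaches plants, which sense it through a dedicated photoreceptor and respond, among other ways, by making flavonoids that absorb it. Transcripts of basic cell functions, often called housekeeping genes, are commonly used as internal standards in transcript assays. Which loci can serve has to be measured for each tissue and treatment. The deposited table does not pair its identifiers with gene names, functions or coordinates, so the steady loci are described by identifier, level and spread, the tissue was not checked against marker genes, and no sequence is shown. Without gene lengths, CPM ranks loci by reads and not by transcript number.

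The steady loci lay at the lower end of the well-expressed range. Their mean CPM had a median of 141 (quartiles 115 and 204), whereas the 1521 other loci of at least 100 CPM had a median of 178 (quartiles 129 and 286). Between 100 and 200 CPM, 143 of 1008 loci were steady (14.2%). Between 200 and 500 CPM the number was 42 of 514 (8.17%), and between 500 and 1000 CPM it was 6 of 109 (5.50%). At 1000 CPM or more, 2 of 83 loci were steady (2.41%). The share of steady loci was thus lower in each higher class, and the median ratio of highest to lowest CPM was larger, at 1.42, 1.54, 1.797 and 2.46 in the 4 classes. The most abundant steady locus ranked 44 among all tested loci by mean CPM.

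**Figure D1:**
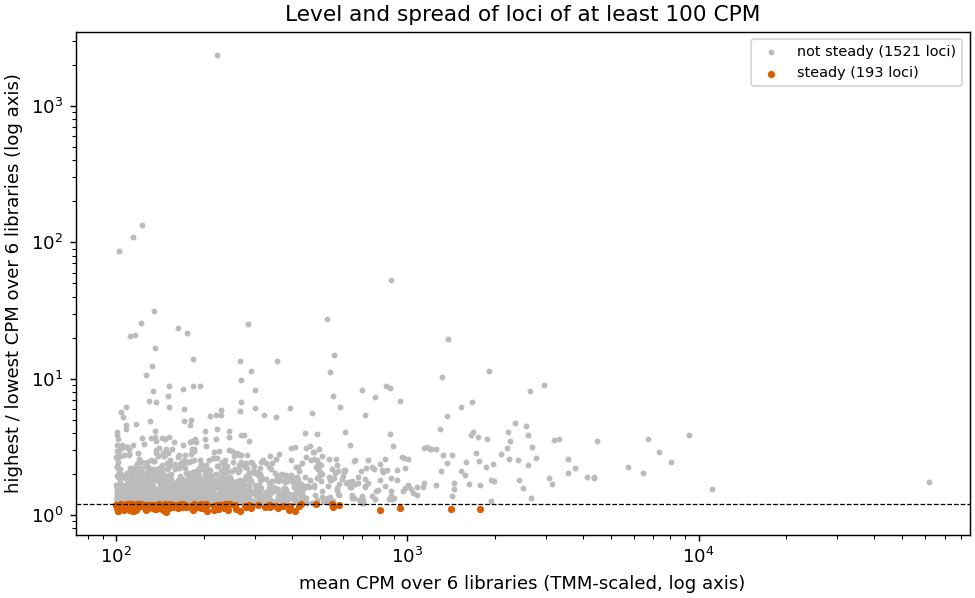
Mean CPM over the 6 libraries (x axis, log scale) and ratio of the highest to the lowest CPM (y axis, log scale) for the 1714 loci of at least 100 CPM, with the steady loci in orange and the limit of 1.2 as a dashed line. The 193 steady loci fill the lowest band, and only 2 of them reach 1000 CPM.

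The 4 steady loci with the most reads were Gb_11492, Gb_17471, Gb_22919 and Gb_02896. Gb_11492 had 1809.8, 1737 and 1770.2 CPM in UV-B libraries and 1775, 1708 and 1895 CPM in control libraries. The UV-B values lay inside the range of the control values. Gb_17471 had 1419.7, 1409 and 1389 CPM in UV-B libraries and 1327, 1442 and 1474 CPM in control libraries, and again the control values enclosed the UV-B values. For Gb_22919 the values were 969.6, 963 and 938 CPM in UV-B libraries and 869, 948 and 981 CPM in control libraries. Its lowest library was control replicate 1 and its highest control replicate 3, so the widest distance lay within the control group. Gb_02896 had 777, 778 and 813 CPM in UV-B libraries and 807, 837 and 821 CPM in control libraries, and 1 UV-B value lay among the control values. The log2 fold changes of UV-B over control were -0.02 ± 0.12, -0.01 ± 0.11, 0.04 ± 0.11 and -0.06 ± 0.10 (SE) in the order named. The 6 loci of 500 to 1000 CPM included these last 2 and Gb_36099, Gb_21243, Gb_00162 and Gb_19047, named here because the class is small. Of the 6, Gb_00162 and Gb_19047 had every UV-B value below every control value, at means of 534 ± 26.4 and 524 ± 2.15 CPM in UV-B leaves and 575 ± 10.6 and 579.8 ± 45.4 CPM in control leaves (SD, n = 3 each).

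The smallest spread was seen in Gb_05240, Gb_23171, Gb_33485 and Gb_04165. Gb_05240 had 147, 154 and 149 CPM in UV-B libraries and 146, 146 and 151 CPM in control libraries, a ratio of highest to lowest of 1.05. Its groups overlapped, and its coefficient of variation over the 6 libraries was 2.02%. Gb_23171 had 420.2, 411 and 413 CPM in UV-B libraries and 396, 412 and 419.95 CPM in control libraries, with a ratio of 1.06. Gb_33485 had 111, 114 and 114 CPM in UV-B libraries against 115, 113 and 118 CPM in control libraries, with a ratio of 1.06. In Gb_04165 the values were 106, 103 and 100.3 CPM in UV-B libraries and 100.4, 99.3 and 99.96 CPM in control libraries, with a ratio of 1.07. The values of Gb_04165 spread more among UV-B libraries, with an SD of 2.76 CPM, than among control libraries, with an SD of 0.588 CPM. No locus of at least 100 CPM had a smaller ratio than Gb_05240.

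**Figure D2:**
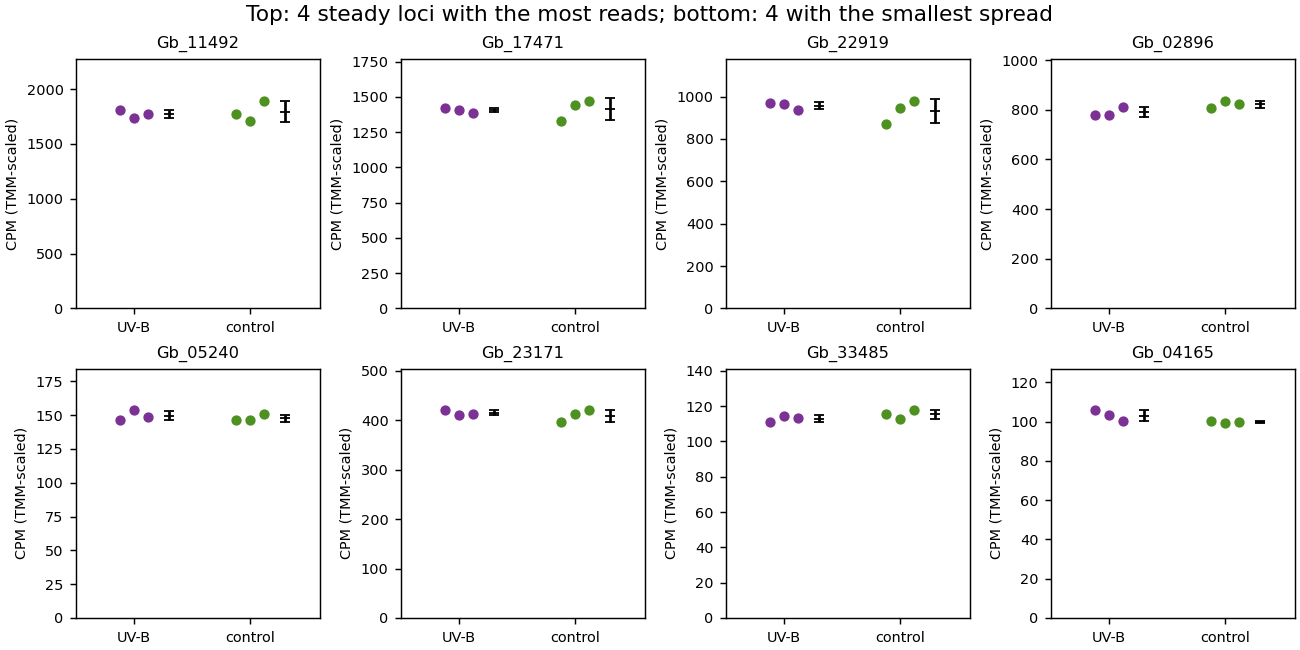
TMM-scaled CPM (y axis, from 0) of the 4 steady loci with the most reads (top) and the 4 with the smallest spread (bottom), with 1 point per library, UV-B in purple and control in green, and black bars for the mean ± SD of the 3 libraries. The groups of each locus lie at nearly the same height, as in Gb_05240 at 149.7 ± 3.54 CPM in UV-B and 148 ± 2.59 CPM in control leaves.

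Of the 193 loci, 188 had identifiers with the prefix Gb and 5 had another prefix (2.59%). Among all loci of at least 100 CPM, 46 of 1714 lacked the Gb prefix (2.68%), and among all tested loci 1217 of 23641 (5.15%). The identifier was not used by the choice. The 5 steady loci without it had means between 108 and 189 CPM. Novel00095 had 186, 188 and 178 CPM in UV-B libraries and 184, 198 and 204 CPM in control libraries, and the groups overlapped. Novel00599 had 132, 136 and 133 CPM in UV-B libraries and 137, 138 and 147 CPM in control libraries, where every UV-B value lay below every control value. The other 3 were Novel00743, Novel00735 and Novel00413, named because they complete the group. Their means were 119 ± 2.25, 116 ± 2.03 and 104 ± 3.62 CPM in UV-B leaves and 114 ± 6.82, 103 ± 1.005 and 113 ± 7.65 CPM in control leaves (SD, n = 3 each), with Novel00735 higher in every UV-B library than in any control library.

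The limits of the choice ran through a continuous distribution. Just inside the ratio limit were Gb_04954, with 116, 119 and 115 CPM in UV-B libraries and 99.4, 108 and 115 CPM in control libraries, and Gb_01914, with 121, 119 and 129.6 CPM in UV-B libraries and 115, 108 and 113 CPM in control libraries. Just outside it were Gb_23228, with 195, 209 and 186 CPM in UV-B libraries and 223, 194 and 192 CPM in control libraries, and Gb_36991, with 151, 156 and 175 CPM in UV-B libraries and 167, 145 and 166 CPM in control libraries. The ratios of all 4 equal the limit when rounded to 2 decimals. The loci inside the limit had a UV-B mean above the control mean, by 0.12 and 0.14 on the log2 scale. In both, every UV-B value lay above every control value, but in Gb_04954 only by 114.69 CPM in UV-B replicate 3 against 114.686 CPM in control replicate 3. The loci outside overlapped between the groups with log2 fold changes of -0.04 and 0.01. At the level limit, Gb_36570 and Gb_10786 were inside with means of 100.2 and 100.04 CPM, and Gb_15772 and Gb_24513, with ratios of 1.18, were outside with means of 99.9 and 99.2 CPM. With a ratio of at most 1.1, 22 loci of at least 100 CPM remained (1.28%). A ratio of at most 1.3 admitted 449 loci (26.2%), a ratio of at most 1.5 admitted 865 (50.5%) and a ratio of at most 2 admitted 1334 (77.8%).

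In the comparison of UV-B with control leaves, 0 of the 193 steady loci passed the quasi-likelihood test of edgeR at a Benjamini-Hochberg adjusted p below 0.05, whereas 8.74% of all 23641 tested loci passed. The choice used the same libraries, so nothing is read from that count. At an unadjusted p below 0.05, edgeR had 0 of the 193, beside 27.5% of all tested loci, and the smallest p was 0.0527. DESeq2 called 0 of them and 17.2% of all tested loci, with 5 of the 193 at an unadjusted p below 0.05. Limma-voom called 0 of them and 7.85% of all tested loci, with 1 of the 193 at an unadjusted p below 0.05. For DESeq2 and limma-voom no share of all tested loci at an unadjusted p is given, so nothing is read from the 5 and the 1. The log2 fold changes of the steady loci ran from -0.18 to 0.20, with a median of 0.0002 and quartiles of -0.05 and 0.06. A positive value was found in 98 loci and a negative one in 95. Over all tested loci the median was 0.003 and the quartiles were -0.31 and 0.28. The group difference was within 1.1-fold in 175 of the 193 loci.

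The errors of these fold changes are given as fitted. Selection for a small spread on the same 6 libraries fixed beforehand that fold changes and intervals of the steady loci would be small, so the intervals do not have their stated coverage for these loci and are a description. Standard errors (log2) were 0.08 to 0.12 in the steady loci, with a median of 0.09, and 0.13 at the median of all loci of at least 100 CPM. For each of the 193 the 95% interval of the edgeR fit lay within 1.5-fold in either direction, and no interval bound exceeded 0.41 on the log2 scale. They were computed locus by locus at TMM scaling. Each steady locus had at least 3099 reads in every library, and counting error alone would give a coefficient of variation of 0.365% to 1.54%. The observed coefficient of variation had a median of 5.66% and was 1.44 to 11.8 times the counting error, with a median of 4.47 times. Reads carry no molecular identifiers, so this covers counting error only.

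The groups were apart in a minority of the steady loci. In 38 of 193 (19.7%) the UV-B and control values did not overlap, 22 with UV-B above control and 16 with UV-B below. Among all tested loci the groups did not overlap in 34.4%, with UV-B above in 16.5% and below in 17.9%. The limit of 1.2 also caps how far groups can be apart, so the smaller share follows in part from the choice. The largest positive fold change belonged to Gb_39100 and the largest negative one to Gb_10248, both named after their values were seen. Gb_39100 had 259.96, 253 and 246 CPM in UV-B libraries and 223, 217 and 219 CPM in control libraries, a log2 fold change of 0.20 with a 95% interval from -0.003 to 0.41. Gb_10248 had 129, 125 and 122 CPM in UV-B libraries and 142, 145 and 139.98 CPM in control libraries, a log2 fold change of -0.18 with a 95% interval from -0.38 to 0.02. Neither passed the test across all loci, with adjusted p values of 0.187 and 0.211 (edgeR).

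Within the groups the steady loci spread little and alike. Their median ratio of highest to lowest CPM was 1.09 within the 3 UV-B libraries and 1.09 within the 3 control libraries. The corresponding medians of all loci of at least 100 CPM were 1.22 and 1.21. The limit over all libraries also caps the ratio within each group, so the smaller medians of the steady loci follow from the choice. The highest of the 6 values was in a UV-B library for 101 loci and in a control library for 92, and the lowest was in a UV-B library for 97 loci and in a control library for 96. Highest and lowest value lay in the same group for 34 loci in UV-B and 29 in control leaves. In the other loci they lay in different groups, with 67 highest in UV-B and lowest in control, and 63 the other way round.

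Single libraries took unequal parts in these extremes. UV-B replicate 2 held the highest value of 58 loci and UV-B replicate 1 that of 18, while control replicates 1, 2 and 3 held that of 16, 37 and 39. The lowest value lay in UV-B replicate 1 for 56 loci and in control replicate 1 for 48. On average the steady loci deviated from their own 6-library geometric means by -1.91%, 2.31% and 0.202% in UV-B replicates 1, 2 and 3, and by -1.71%, 0.497% and 0.675% in control replicates 1, 2 and 3. No library held values of the steady loci below 86.4% or above 113% of the 6-library mean. The other loci of at least 100 CPM had a median of 88.2% of their own means in UV-B replicate 1, against 98.0% and 98.1% in UV-B replicates 2 and 3 and 101% to 106% in control libraries.

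**Figure D3:**
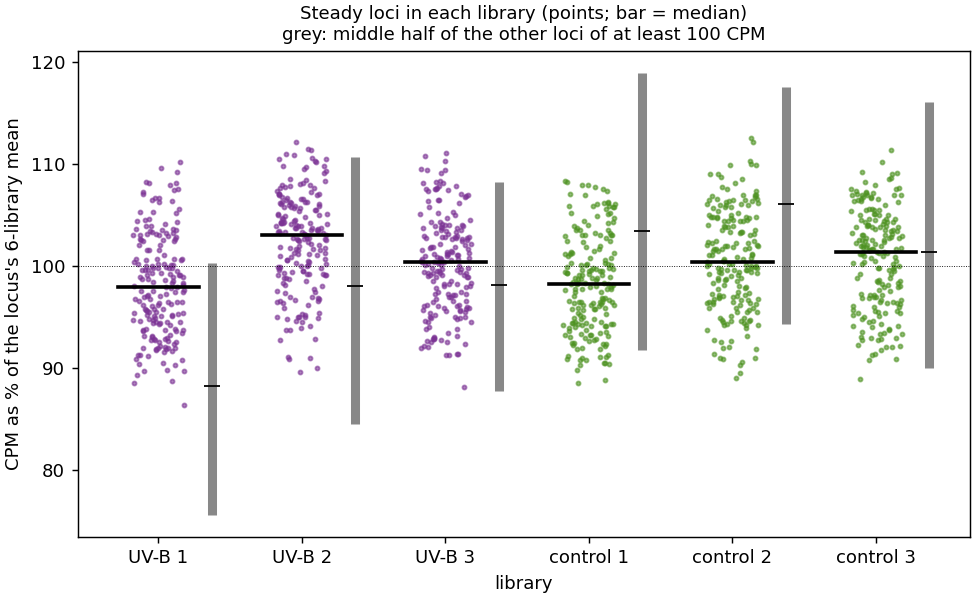
CPM of the 193 steady loci in each library as a percentage of the locus's own mean over the 6 libraries (y axis, not starting at 0), with 1 point per locus and a black bar for the median, and beside it the median and the range between the quartiles of the 1521 other loci of at least 100 CPM in grey. The steady medians lie between 97.9% in UV-B replicate 1 and 103% in UV-B replicate 2, and the grey medians are lower in the 3 UV-B libraries than in the 3 control libraries.

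Many more loci were tight within each group than were steady over all 6 libraries. The limit over 6 values implies the same limit within each 3, and 3 values spread less than 6. The direction of this gap was therefore fixed beforehand, and its size is a description. Of the 1714 loci of at least 100 CPM, 802 (46.8%) kept their highest value within 1.2 times their lowest in the 3 UV-B libraries and 820 (47.8%) in the 3 control libraries. Both held for 500 loci (29.2%), and the 193 steady loci were 38.6% of these. The other 307 were tight in each group but exceeded the limit over all libraries. Among the 307, every UV-B value lay above every control value in 124 loci and below in 113, and the groups overlapped in 70. The groups did not overlap in 43.8% of all loci of at least 100 CPM and in 34.4% of all tested loci. Loci tight within each group that exceed the limit over all libraries are apt to have groups apart, so these counts follow largely from the selection. Of the 307, 49 passed the test across all loci (16.0%), 12 of them higher and 37 lower in UV-B leaves (edgeR, adjusted p below 0.05). Calls made up 14.4% of all 1714 loci of at least 100 CPM and 16.2% of the 1521 that were not steady, so the share was near that of loci of the same level, and 8.74% of all tested loci, with 2.81% higher and 5.93% lower. The 307 were selected for low spread and for exceeding the limit, both of which favour a call, so the share is a description. The count was 19, 9 and 13 without UV-B replicate 1, 2 or 3 and 28, 7 and 18 without control replicate 1, 2 or 3. All tested loci had 1145, 732 and 939 calls, and 1597, 715 and 958 calls, in the same fits. With the replicate block the count was 8, of which 1 was higher and 7 lower, beside 930 calls over all tested loci. The balance turned under upper-quartile factors, with 32 higher and 29 lower, and with library totals alone, with 130 higher and 15 lower. Over all tested loci these scalings gave 939 higher and 1164 lower, and 2895 higher and 976 lower, so the turn under library totals was shared by the whole table. DESeq2 gave 55 higher and 67 lower among the 307, and 1561 higher and 2490 lower over all tested loci. The TMM-scaled log2 fold changes of the 307 ran from -0.75 to 0.84.

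A measure that the choice had not used was had by leaving out 1 library, choosing loci on the other 5 by the same limits, and then reading the library left out. The TMM factors of the 6-library table were kept. Between 230 and 297 loci were chosen this way. The value in the library left out was within 1.1-fold of the mean of the other 5 in 164 of 297 loci (55.2%) for UV-B replicate 1, 170 of 279 (60.9%) for UV-B replicate 2 and 179 of 230 (77.8%) for UV-B replicate 3. For the control libraries the numbers were 176 of 267 (65.9%), 177 of 248 (71.4%) and 174 of 261 (66.7%) in replicates 1, 2 and 3. Among all loci with at least 100 CPM in the other 5 libraries, the shares were 33.2%, 37.4% and 46.7% for UV-B replicates 1, 2 and 3 and 39.5%, 41.9% and 38.9% for the control replicates. The share was higher in the chosen loci for each of the 6 libraries left out. The other 5 libraries held both groups, so the choice had already removed loci with a wide spread or groups far apart there. The loci compared with them kept such loci. The direction of the difference was therefore largely fixed beforehand, and its size is a description. When the library left out was added, 65.3% to 83.9% of the chosen loci still kept the ratio of 1.2. When the loci were chosen with factors computed without that library, the shares within 1.1-fold were 54.2% to 78.9%. The compared values were still scaled with the 6-library factors, to which the library left out contributed.

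**Figure D4:**
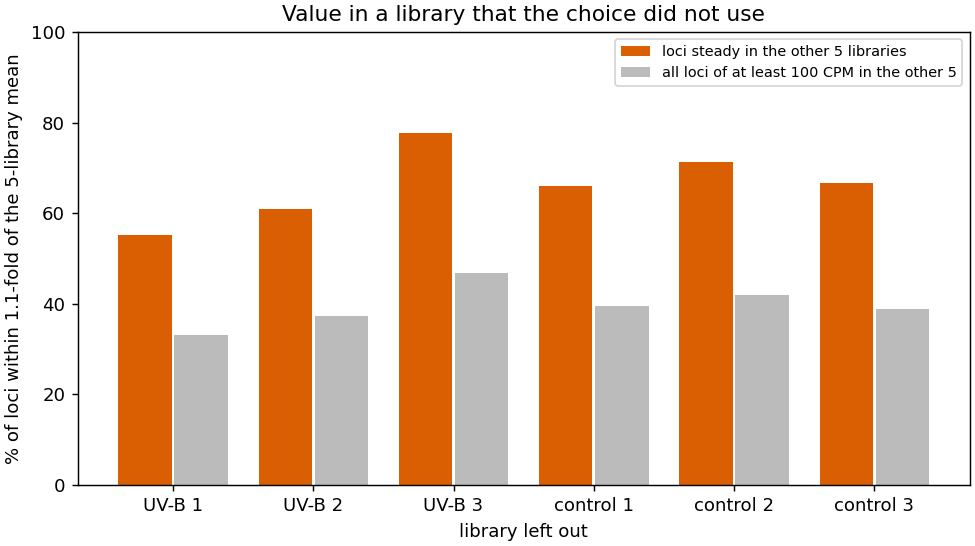
Percentage of loci (y axis) whose CPM in the library left out (x axis) was within 1.1-fold of their mean over the other 5 libraries, for loci that were steady in those 5 (orange) and for all loci with at least 100 CPM there (grey). The orange bars run from 55.2% to 77.8% and the grey bars from 33.2% to 46.7%.

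Ratios of reads between 2 loci of one library need no scaling factor. Gb_11492 had 1.27, 1.23 and 1.27 times the reads of Gb_17471 in UV-B libraries and 1.34, 1.18 and 1.29 times in control libraries, and the control ratios enclosed the UV-B ratios. Gb_22919 had 1.25, 1.24 and 1.15 times the reads of Gb_02896 in UV-B libraries and 1.08, 1.13 and 1.19 times in control libraries, with overlapping groups. For Gb_05240 over Gb_23171 the ratios were 0.349, 0.374 and 0.360 in UV-B libraries and 0.369, 0.355 and 0.359 in control libraries, with means of 0.361 ± 0.0123 and 0.361 ± 0.0072 (SD, n = 3 each). Over all 18528 pairs of steady loci the highest of the 6 ratios was at the median 1.21 times the lowest, and at most 1.44 times. In 45.5% of the pairs it was at most 1.2 times. Among pairs of the 1521 other loci of at least 100 CPM the median was 1.95 times, and 1.56% of pairs were within 1.2 times. The pairs share loci and libraries, and the steady loci were chosen for low spread, so these are descriptions.

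Ranked by how little its read ratio to the other steady loci varied, Gb_05240 came first, with a mean SD of the log2 ratios of 0.08 over the 6 libraries. Gb_18659 and Gb_21078 followed, both also at 0.08, and were named after their values were seen. The highest mean SD was 0.14, in Gb_40950. This ranking used the same 6 libraries as the choice, and a locus with a small ratio of highest to lowest is apt to rank high. Its order is therefore a description. The tested loci outside the set whose profile over the 6 libraries was nearest to the mean profile of the steady loci were Gb_20523 and Gb_04425, with root mean square distances of 0.016 and 0.020 on the log2 scale. Gb_20523 had 88.7, 90.8 and 91.0 CPM in UV-B libraries and 90.1, 90.2 and 92.1 CPM in control libraries. Gb_04425 had 25.3, 26.2 and 25.7 CPM in UV-B libraries and 25.9, 25.9 and 25.3 CPM in control libraries. Their ratios of highest to lowest were 1.04 each, smaller than in any steady locus, and they were outside the set because their means were 90.5 and 25.7 CPM.

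Steadiness was relative to the scaling of the libraries. The 193 loci took 4.33%, 4.12% and 4.01% of the raw counts of UV-B libraries and 3.56%, 3.47% and 3.60% of those of control libraries. The means were 4.15% ± 0.164 in UV-B and 3.54% ± 0.0694 in control leaves (SD, n = 3 each), so that the share was 1.17 times as large in UV-B leaves and the groups did not overlap. The other loci of at least 100 CPM took 56.5% ± 1.85 of the raw counts in UV-B and 61.4% ± 0.922 in control leaves (SD, n = 3 each). The TMM factors were 1.08 ± 0.0584 in UV-B and 0.924 ± 0.0246 in control libraries (SD, n = 3 each), a ratio of 1.17, and after scaling the summed CPM of the steady loci was 38362 ± 699 in UV-B and 38380.0 ± 642 in control leaves. Since the loci were chosen on the scaled values, their larger raw share follows from the factors. The counts do not give RNA per leaf or per cell, and in leaf tissue a change in the cells present and a change in RNA per cell cannot be told apart.

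With library totals alone, all 193 loci had a positive log2 fold change, from 0.05 to 0.43 with a median of 0.23, which is also the median of all tested loci under that scaling. Every UV-B value then lay above every control value in 162 of them. No such count over all tested loci is given for that scaling, so nothing is read from the 162. Of the 193, 22 passed the test, all higher in UV-B leaves (11.4%; edgeR, adjusted p below 0.05), beside 12.2% of all tested loci that were called higher under that scaling and 16.4% called in either direction. The loci were thus steady on the TMM scale, but only 22 of the 193 kept the limit of 1.2 as raw shares of the library. Under RLE factors 183 of the 193 remained steady (94.8%) and under upper-quartile factors 136 (70.5%). With library totals alone 122 loci of at least 100 CPM were steady, and they shared 22 loci with the 193, which is 11.4% of the 193 and 18.0% of the 122.

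The same 22 loci were steady under all 4 scalings. Their means ran from 105 to 805 CPM, and Gb_02896, Gb_21243, Gb_38603 and Gb_14187 were the most abundant, the last 3 named after their values were seen. Under TMM scaling their log2 fold changes were all negative, from -0.18 to -0.04 with a median of -0.10. In 11 of them every UV-B value lay below every control value, as in 16 of the 193 and in 17.9% of all tested loci. With library totals alone Gb_02896 had a log2 fold change of 0.17 and Gb_10248 one of 0.05. Library totals shift all fold changes upward by about the same amount, so loci with a negative TMM fold change stay closest to 0 there, and the shared direction of the 22 follows largely from how they were found. Nothing is therefore read from the count of 11.

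**Figure D5:**
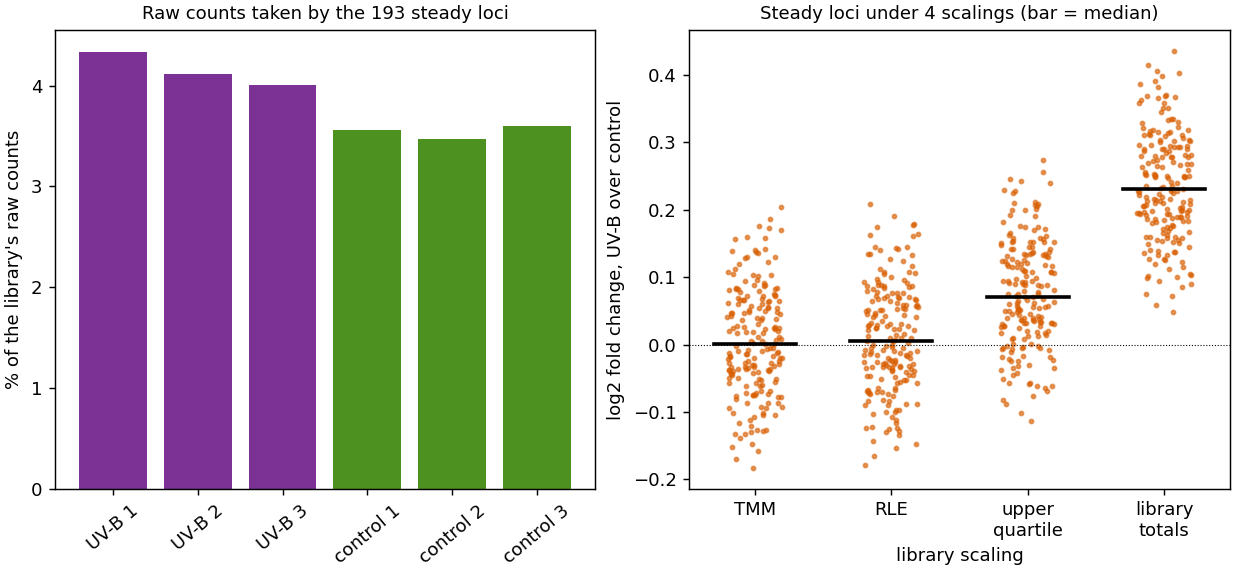
Left, percentage of each library's raw counts taken by the 193 steady loci (bars from 0, 1 per library, UV-B in purple and control in green). Right, log2 fold change of UV-B over control (y axis) of the same loci under TMM, RLE, upper-quartile and no composition factors, with 1 point per locus and a black bar for the median. The UV-B bars all exceed the control bars, and the medians on the right are 0.0002, 0.005, 0.07 and 0.23.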

How the data were processed

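For the 6 libraries the authors deposited raw read counts per locus in 1 table, as whole numbers without normalization. CASAVA 1.8, TopHat2 and HTSeq 0.9.1 are named, with no role or order, per the submitters' processing notes. For the genome build, annotation, strand setting and treatment of reads with several matches nothing is given in the sources used here, so counts of near-identical, overlapping or antisense loci are uncertain. Groups and replicate numbers come from the sample titles. The table held 0 rows without a locus and 0 unassigned sample columns.

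From these counts, R 4.3.3 and edgeR 4.0.16 gave filterByExpr (23641 loci kept), TMM factors and CPM without a prior count, and the quasi-likelihood test of UV-B against control (two-sided, no term beside group, p adjusted by Benjamini-Hochberg over all kept loci, threshold 0.05). The standard error is the log2 fold change divided by the square root of F. The fit was tested on simulated counts. Alternatives were other scalings, no filter, DESeq2 1.42.0, limma-voom (limma 3.58.1), a replicate block, each library left out, and other limits of the choice. Depth was 37528794 to 47559213 counts. Named loci were the 4 steady loci with the most reads, the 4 with the smallest ratio, the 2 most abundant without a Gb identifier, 2 on each side of each limit, and the 2 others with the most alike profile. Loci named otherwise are said to be. The set, the lists and the tests were chosen with earlier results of these data known. Lists by gene name were not applied because no names were used.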

Additional observations from a re-analysis of the deposited data

How the results depend on the processing

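RLE factors, upper-quartile factors, a table with no low-count filter and a limit on the coefficient of variation of 0.07 kept the number of steady loci within 1.5 times, at 187, 189, 188 and 199. The loci themselves changed more, since these sets shared 183, 136, 188 and 173 loci with the 193. Library totals alone gave 122, and called 3871 loci in all and 22 of the 193. The number moved most with the limits, to 22, 449 and 865 loci at a ratio of at most 1.1, 1.3 and 1.5, and to 521 and 50 loci at a mean of at least 50 and 200 CPM. Leaving out 1 library gave 223 to 277 steady loci, since 5 values spread less than 6, and kept 176 to 193 of the 193. It gave 715 to 1597 called loci over the whole table (1145, 732 and 939 without UV-B replicate 1, 2 or 3, and 1597, 715 and 958 without control replicate 1, 2 or 3), with 0 of the 193 called in each edgeR fit and 0 at an unadjusted p below 0.05. DESeq2 called 4051 loci; the cause was not tested. The replicate block uses degrees of freedom, and with it edgeR called 930 loci and 0 of the 193 (0 at an unadjusted p below 0.05). At that unadjusted p, edgeR had 11 of the 193 under upper-quartile factors and 96 with library totals alone. No share of all tested loci at an unadjusted p is given for these alternatives, so nothing is read from the unadjusted counts. Deviations from the group mean correlated by 0.002, 0.13 and -0.05 between libraries of the same number (1, 2 and 3), and some libraries correlated better with another number. The numbers were therefore not treated as pairs. Of 260 log2 fold changes of the 20 loci named by rule, recomputed under 13 alternatives, 226 moved by less than 1 SD between replicates, and the other 34 came from library totals alone (20) and upper-quartile factors (14). The sign changed in 35 of the 260, none of them in a called locus. Counting error was at most 1.54% of the level of any steady locus, so depth limited these values less than the spread between libraries.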
